A study of Rattus norvegicus with 12 samples.

Results

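The genes Cacna1g, Cacna1h and Cacna1i encode the pore-forming alpha1 subunits of the T-type, or low-voltage-activated, calcium channels. Their probes were taken from the array by gene name, which gave 5 probes of 30367 gene probes, for 3 of 19394 gene names on the array. Cacna1h had 1 probe, Cacna1g had 2 and Cacna1i had 2. Cacna1h was selected on its measured difference in signal between the same control and acetamiprid cultures, and the other 2 genes were added as the rest of the family. The values of Cacna1h below are therefore a description without a test, whereas Cacna1g and Cacna1i were tested.

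The cultures were neuron-enriched cells of the cerebellum of 1-day-old Sprague-Dawley rats, grown to 16 days in vitro (DIV). The ACE cultures received 1 µM acetamiprid, a neonicotinoid insecticide, from day 2, and the control cultures received only the vehicle, dimethyl sulfoxide at 0.001%, which the ACE cultures contained too. There were 6 control and 6 ACE arrays, in 6 numbered pairs. The study's methods state that all cultures of an experiment came from 1 lot of cells, prepared from neonates of a single litter, and a replicate number is taken here to stand for such a lot. The cells were not sorted, so each array held RNA of neurons together with glia and any other cells of the dissected tissue.

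T-type channels open at small depolarisations close to the resting potential and inactivate quickly. They carry the calcium current behind low-threshold spikes and rebound bursts, and their role is best known in the thalamus, the inferior olive and the deep cerebellar nuclei. In the cerebellum, Cacna1g is known for its expression in Purkinje cells, while Cacna1h is also known from sensory neurons, endocrine cells and immature muscle, and Cacna1i mainly from the brain.

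The probe sequences show which part of each transcript the values refer to, and how far the probes of a gene are independent of each other. All are from the array design in the files, 5′ to 3′, with positions on the rat build rn4. The first 30 of the 60 bases are given for Cacna1h and Cacna1i, and all 60 for Cacna1g. Capitals mark the stretch common to both Cacna1i probes and, in the second Cacna1g probe, the closing TGA triplet, whose letters spell a stop codon.
Cacna1h A_64_P067366: gctcaacattcatttgacatccatttgctt
Cacna1g A_44_P554973: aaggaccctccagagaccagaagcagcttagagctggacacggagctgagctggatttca
Cacna1g A_64_P004584: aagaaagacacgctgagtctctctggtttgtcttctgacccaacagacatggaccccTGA
Cacna1i A_64_P017228: gctacccgctatcctccCGCCTGCCCCATC
Cacna1i A_64_P039842: CGCCTGCCCCATCTTGCCTTCTTTTACCTC

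The Cacna1h probe lay at chr10:14621473-14621532 on the minus strand and started at base 7710 of its transcript. Its GC content was 35%, the lowest of the 5 probes. The Cacna1g probes lay at chr10:83044389-83044448 and chr10:83043933-83043992, also on the minus strand, with starts 456 bases apart and a GC content of 55% and 50%. They share no bases and are separate readings of the same gene. The Cacna1i probes lay on the plus strand at chr7:118681461-118681520 and chr7:118681478-118681537 and shared 43 of their 60 bases. Their values are thus 2 readings of nearly the same stretch and do not count as independent evidence. Whether a position was exonic or untranslated was not looked up, since no annotation of rn4 was used here. Each probe had a single spot per array, so the spread given below holds both the differences between cultures and the error of spot and array. These cannot be told apart.

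All 5 probes passed the filter on low signal. Signal was well above background on all 12 arrays for 4 of them, and on 11 arrays for Cacna1g A_44_P554973, the exception being the ACE array of lot 6. No spot of theirs was saturated or marked as an outlier (0 for both). The scanner software gave their spot error as 10.0 to 11.1% of the signal for 4 of the probes, and as 10.7 to 25.6% for the dim A_44_P554973. Levels of different probes cannot be set against each other on these arrays, so no order of abundance among the 3 genes is given.

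The 75th percentile of signal per array ranged from 1803 to 4384 intensity units, and from 75.4 to 91.0% of spots were well above background. With 6 lots, the precision of every value is limited by the number of arrays. Control arrays were always at place 1 of the slide and ACE arrays at place 3, so that place and exposure cannot be told apart. The arrays of lot 1 were read with an older software version than the other 10. Lots 4, 5 and 6 were scanned in 1 batch and the other lots each in a batch of their own.

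Cacna1h signal was higher in ACE than in control in all 6 lots, by 0.69 ± 0.15 on the log2 scale (SE, n = 6 pairs), or 1.61-fold. In the control cultures the normalised log2 signal was 8.52, 8.94, 9.70, 9.92, 8.76 and 9.72 in lots 1 to 6. In the ACE cultures it was 9.29, 9.69, 9.99, 10.24, 10.02 and 10.44 in the same order. The groups overlapped, because the ACE culture of lot 1 lay below the control cultures of lots 3, 4 and 6. Lots 1, 2 and 5 were low in the control group, and lot 1 was also the lowest in the ACE group. The control cultures averaged 9.26 ± 0.59 and the ACE cultures 9.94 ± 0.41 (SD over 6 lots).

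**Figure D1:**
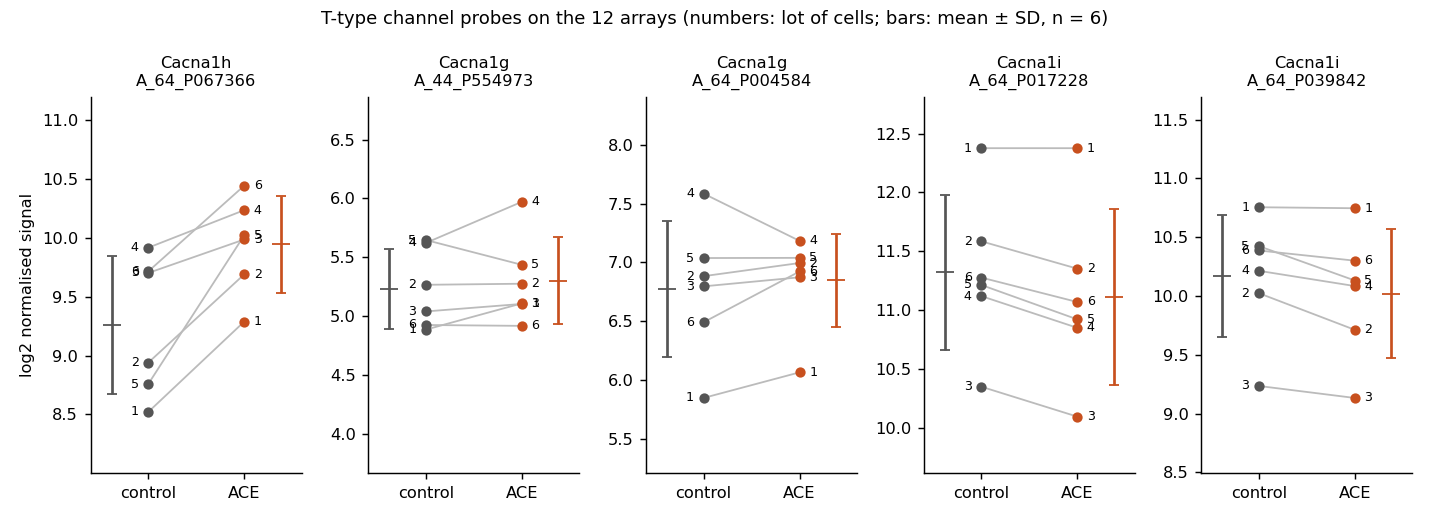
Normalised log2 signal (y axis) of the 5 T-type channel probes in control and ACE cultures (x axis), with a line joining the cultures of each numbered lot and bars for mean ± SD (n = 6). Every panel spans the same range of log2 units. Cacna1h rises along all 6 lines, from a mean of 9.26 to 9.94, while the lines of the Cacna1i probes slope slightly down and those of Cacna1g go both ways.

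The size of the Cacna1h difference varied between lots. It was 1.26 in lot 5, the largest, and 0.77, 0.75 and 0.73 in lots 1, 2 and 6. In lots 3 and 4 it was 0.28 and 0.32. Lots 3 and 4 were 2 of the 3 with the highest control level, and lot 6, the other one, nevertheless had a difference of 0.73. Within the scan batch of lots 4 to 6 the mean difference was 0.77. Leaving out each lot in turn gave means from 0.57, without lot 5, to 0.77.

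Over all probes, 4.76% of the 23580 probes measured in all pairs were higher in ACE in all 6 lots, 0.136% were so with a change of at least 1.5-fold, and 99 of 23796 tested probes, or 0.416%, had a mean difference at least as large as that of Cacna1h. These shares place the gene among the probes and support nothing, as the same contrast chose it. Only 3 of the tested probes, or 0.0127%, had groups that did not overlap, and no T-type channel probe was among them (0 of 5). The lots, each of which was also a slide of its own, accounted for 56.5% of the variance of Cacna1h over the 12 arrays, the exposure for 35.4% and the remainder for 8.06%. In such mixed cultures, more cells that express the gene and more transcript per cell cannot be told apart.

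For Cacna1g no difference passed the test and the lots went both ways. For A_44_P554973 the log2 signal was 4.88, 5.27, 5.04, 5.62, 5.65 and 4.92 in the control cultures of lots 1 to 6. The ACE cultures read 5.11, 5.27, 5.10, 5.97, 5.43 and 4.92. The groups overlapped, and only the ACE culture of lot 4 lay above every control culture. The mean difference was 0.07 ± 0.08 (SE, n = 6 pairs), higher in 4 of 6 lots, with an adjusted p of 0.645 by limma over all probes and a 95% interval from -0.10 to 0.25. The exact two-sided sign-flip permutation test gave an unadjusted p of 0.3125.

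For the second Cacna1g probe, A_64_P004584, the control cultures read 5.85, 6.88, 6.80, 7.58, 7.04 and 6.49 and the ACE cultures 6.06, 6.99, 6.87, 7.18, 7.04 and 6.92. Lot 1 was the lowest in both groups and lot 4 the highest in both. The mean difference was again 0.07 ± 0.11, higher in 5 of 6 lots, with an adjusted p of 0.734 by limma, an interval from -0.17 to 0.32 and an exact sign-flip permutation p of 0.469. The probes disagreed within lots. In lot 4 the difference was 0.35 on the first and -0.40 on the second, and in lot 6 it was -0.01 and 0.43. Both mean differences changed sign when arrays were scaled to their 75th percentile, to -0.06 and -0.01, so that no direction is given for Cacna1g. Single lots moved both means. Without lot 4 they were 0.02 and 0.17, without lot 5 they were 0.13 and 0.09, and without lot 6 they were 0.09 and 0.001, with adjusted p of 0.361 or higher by limma under every lot left out.

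**Figure D2:**
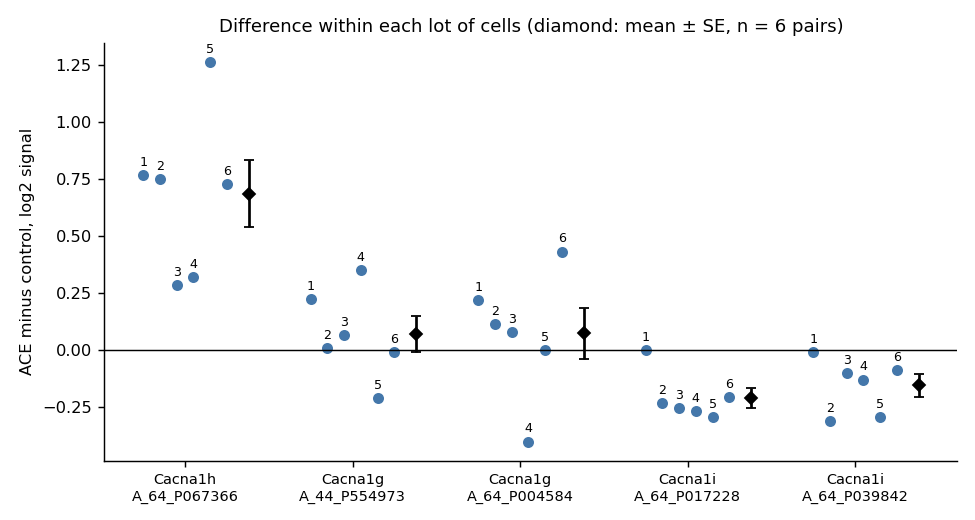
Difference in log2 signal between the ACE and the control culture of each lot (y axis, points numbered by lot) for the 5 probes (x axis), with the mean ± SE (n = 6 pairs) as a diamond. All 6 points of Cacna1h lie above 0, from 0.28 to 1.26, those of Cacna1g lie on both sides, and those of Cacna1i lie between -0.31 and 0, with lot 1 close to 0.

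Cacna1i signal was slightly lower in the ACE cultures on both of its overlapping probes, and the difference did not pass the adjusted threshold. On A_64_P017228 the control cultures read 12.38, 11.58, 10.35, 11.12, 11.21 and 11.28 in lots 1 to 6. The ACE cultures read 12.38, 11.35, 10.09, 10.85, 10.92 and 11.07. Lot 1 was the highest and lot 3 the lowest in both groups, and the spread between lots was far wider than the step from control to ACE. The mean difference was -0.21 ± 0.04 (SE, n = 6 pairs), with an adjusted p of 0.147 by limma and an unadjusted 95% interval from -0.31 to -0.11.

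On A_64_P039842 the control cultures read 10.76, 10.02, 9.24, 10.21, 10.42 and 10.39, and the ACE cultures 10.75, 9.71, 9.13, 10.08, 10.13 and 10.30. The mean difference was -0.16 ± 0.05, with an adjusted p of 0.214 by limma and an interval from -0.27 to -0.04. Both probes were lower in all 6 lots, as were 6.93% of all probes. The exact sign-flip permutation p was 0.03125 for each, unadjusted, which is the smallest that 6 pairs can give. The lot 1 cultures hardly differed, by -0.0001 and -0.008 on the respective probes. With the deposited table these became 0.007 and 0.001, so that only 5 of 6 lots were lower there. In lots 2 to 6 the difference ran from -0.29 to -0.21 on the first probe and from -0.31 to -0.09 on the second.

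Most of the variation of these 2 genes lay between lots. Each lot was also a slide of its own, so that cells, slide and scan cannot be told apart in this share. The lot accounted for 96.9% and 96.3% of the variance of the Cacna1i probes over the 12 arrays and for 91.4% and 91.7% of that of the Cacna1g probes. The exposure accounted for 2.57% and 2.47% in Cacna1i, and for 1.18% and 0.644% in Cacna1g. Cacna1h, at 56.5%, had the smallest share for the lot among the 5 probes. It was chosen for its difference between the groups, and a larger share for the exposure leaves less for the lot. Over the 12 arrays, which share 6 lots, the Cacna1i probes correlated with each other at r = 0.84 and the Cacna1g probes at r = 0.68, as a description.

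**Figure D3:**
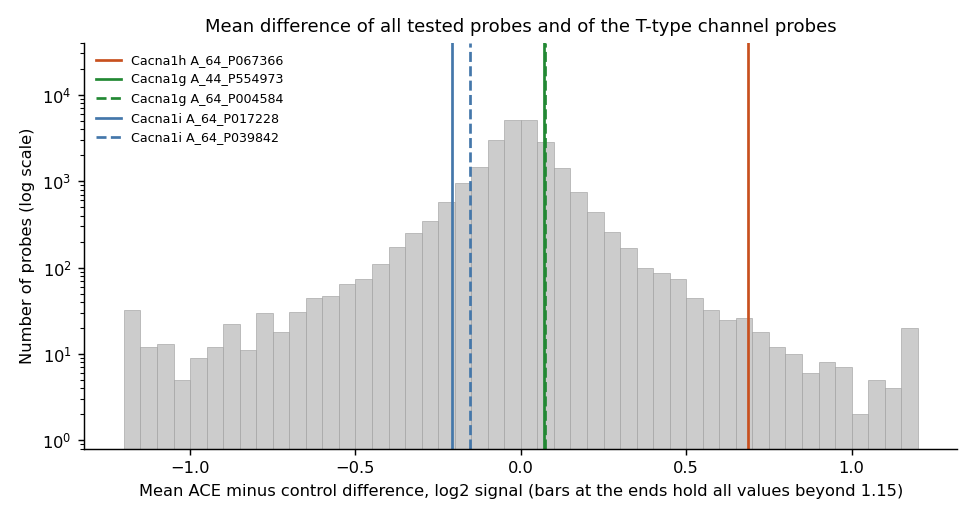
Number of tested probes (y axis, log scale) by mean difference between ACE and control in log2 signal (x axis), with lines at the 5 T-type channel probes. The Cacna1g lines at 0.07 stand near the centre of the distribution, the Cacna1i lines at -0.21 and -0.16 on its lower flank, and the Cacna1h line at 0.69 stands in the sparse right tail, where 99 probes lie as far out or farther.

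As the background for these values, 0 of 23796 probes, or 0%, passed the adjusted limma threshold in this contrast, where the lowest adjusted p was 0.141. An unadjusted limma p under 0.05 was found for 3956, or 16.6%, and with the lot as a random block 5 probes passed the adjusted threshold, none of them a Cacna1g or Cacna1i probe. The median absolute difference over all probes was 0.06, and the median SD of the pair differences was 0.13. The SD of the pair differences was 0.36 for Cacna1h, 0.20 and 0.28 for Cacna1g, and 0.11 and 0.12 for Cacna1i.

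Genes whose products bind, modify, transcribe or work with T-type channels showed little difference between the groups. Of 39 such genes with 61 probes, 59 probes were tested, and 0 passed the adjusted limma threshold. An unadjusted p under 0.05 was found for 3 of 59, against 16.6% of all probes. The median difference over the list was -0.0004, against -0.005 over all tested probes, and no probe changed by 1.5-fold (0 of 59, against 1.72% of all probes). Klhl1, an actin-binding protein of neurons, was above background on 0 arrays and was not tested.

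Among the 33 tested probes for binding and modifying proteins, 2 were lower in all 6 lots and 0 higher, and both belonged to Calm2, one of the genes for the calcium sensor calmodulin. Over all probes, 11.7% kept one direction in all lots. A_64_P091064 differed by -0.11 ± 0.04 (limma SE, n = 6 pairs, adjusted p of 0.265), and A_64_P113715 by -0.07 ± 0.03 with an adjusted p of 0.309. The third Calm2 probe differed by -0.01 and was lower in only 3 of 6 lots. Stx1a, the syntaxin of the presynaptic release machinery, was higher by 0.12 ± 0.04 in 5 of 6 lots, and its adjusted p was 0.205. The other members of this group ranged from -0.17 for Usp5, a deubiquitinase, to 0.34 for a probe of Snap25, the SNARE partner of syntaxin, whose second probe differed by 0.11.

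The 20 tested probes for coupled membrane proteins had a median difference of 0.05. Most of the 20 are for A-type potassium channels with their auxiliary subunits and for calcium-activated potassium channels. Of the 19 measured in all 6 lots, 0 kept one direction, against 11.7% of all probes, which is too few probes to read a difference from. The 6 probes of the transcription factors Egr1, Rest, Sp1 and Mtf1 differed by -0.02 to 0.08, and the lowest adjusted p among them was 0.469.

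The genes for the alpha1 subunits of the high-voltage-activated channels, looked up after the T-type values were seen, were 7 genes with 11 probes, of which 9 were tested. None of these 9 kept one direction in all 6 lots (0, against 11.7% of all probes, which is too few probes to read a difference from), and the lowest adjusted p was 0.297. Their differences ranged from -1.28 for Cacna1s, the alpha1 subunit of skeletal muscle, to 0.26 for a probe of Cacna1e, whose other probe differed by -0.44. Cacna1s was lower in ACE in 5 of 6 lots.

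Around Cacna1h on chromosome 10, 52 probes lay within 500 kb, and 46 of them were tested. The distances given for single neighbours, here and below, run between the starts of the probes and are not distances between genes. Of these, 8, or 17.4%, kept one direction in all 6 lots, of which 2 were higher and 6 lower, against 11.7% over all probes. The count was 4 when arrays were scaled to their 75th percentile and 3 after another background correction. The differences of the 6 lower ones were -0.33 for Metrn, which encodes a secreted factor of glia and neurons, -0.29 for the somatostatin receptor gene Sstr5, and -0.04 to -0.09 for Spsb3, Nme3 and 2 transcripts with no gene name. The higher ones were TC621369, a transcript with no gene name, at 0.17, and Cramp1l at 0.72. None of the 46 passed the adjusted limma threshold (0), 8 had an unadjusted p under 0.05, close to the 16.6% of all probes, and the median difference was -0.03.

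Cramp1l lay 406 kb from the Cacna1h probe and was dim. Its log2 signal was 4.95, 4.75, 4.25, 1.89, 4.36 and 3.79 in the control cultures of lots 1 to 6 and 5.07, 4.81, 5.24, 4.53, 4.55 and 4.11 in the ACE cultures. The mean rested on lot 4, with a difference of 2.64 from a single low control reading, and on lot 3 with 0.99, while the other lots differed by 0.06 to 0.31. It was above background on 3 of 6 control and 5 of 6 ACE arrays. The only other neighbour of Cacna1h with a change of 1.5-fold was Tpsb2, a mast cell tryptase gene 7.10 kb away. Tpsb2 differed by -0.89 ± 0.71 (limma SE, n = 6 pairs) and was lower in 4 of 6 lots. Its probe was above background on 4 of 6 control and 4 of 6 ACE arrays.

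The nearest gene on one side was Tpsg1, another tryptase gene. Its probe at chr10:14621444-14621503 lay on the plus strand and covered 31 positions of the Cacna1h probe from the opposite strand. It was well above background on 0 of 12 arrays and did not pass the filter, and its mean difference was -0.08, higher in 3 of 6 lots. On the other side the nearest was Tekt4, a gene for a microtubule protein of cilia and flagella, 106 kb away, at -0.11 and lower in 5 of 6 lots.

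**Figure D4:**
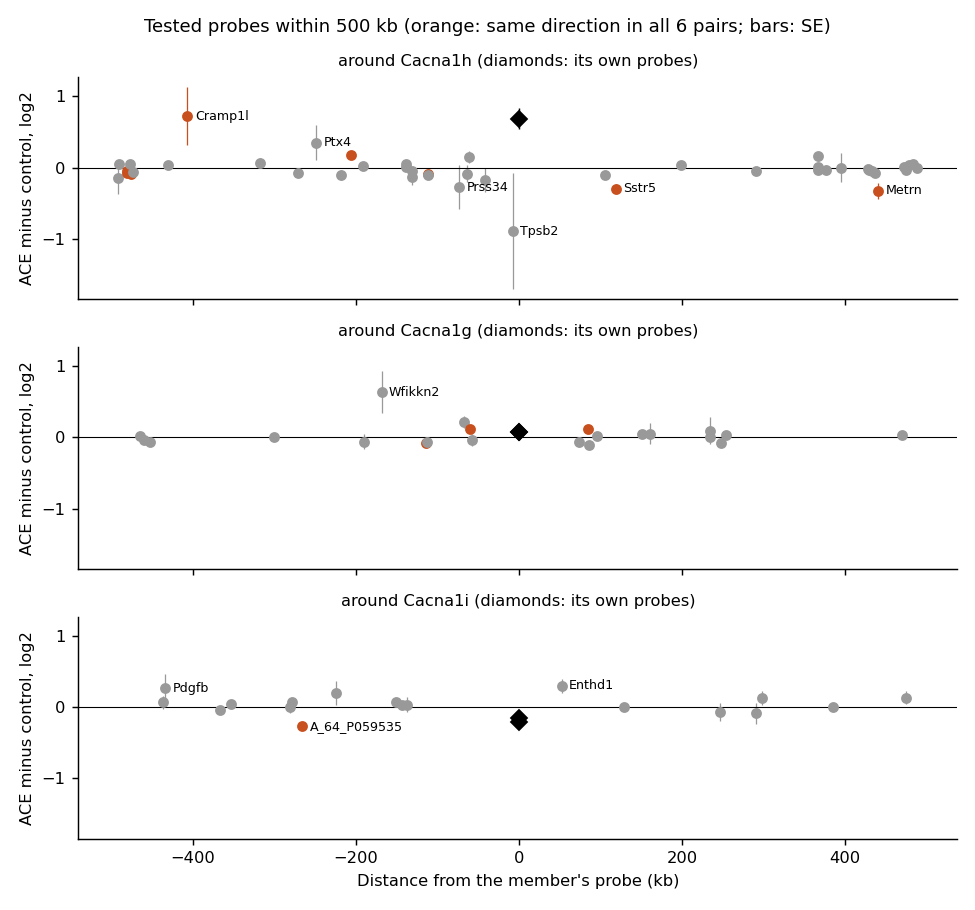
Mean ACE minus control difference in log2 signal (y axis) of tested probes by distance in kb (x axis) from the probe of each T-type gene, with SE bars, diamonds for the gene's own probes, and orange for probes with the same direction in all 6 pairs. Around Cacna1h the probe of the gene itself stands at 0.69 above near neighbours that lie close to 0 or below it, with Cramp1l at 0.72 some 406 kb away.

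Around Cacna1g, 22 of 23 probes were tested and 3, or 13.6%, kept one direction in all lots, against 11.7% of all probes. These were Luc7l3 at -0.07, a splicing factor gene, and Ankrd40 and Epn3, each at 0.12. A second Epn3 probe was lower by -0.11 in 5 of 6 lots. Wfikkn2, which encodes a secreted protease inhibitor, differed by 0.63, in 5 of 6 lots, on a probe above background on 4 control and 5 ACE arrays. The nearest genes by probe position were Abcc3 at 57.3 kb, which differed by -0.03, and Spata20 at 73.4 kb, which differed by -0.07. Around Cacna1i, 18 of 19 probes were tested and 1, or 5.56%, kept one direction, also against 11.7%, a probe with no gene name at -0.27. The nearest genes to Cacna1i by probe position were Enthd1 at 52.5 kb, at 0.30 and higher in 5 of 6 lots, and Rps19bp1 at 137 kb, at 0.04. No neighbour of these 2 genes passed the adjusted limma threshold (0 of 22 and 0 of 18), while 6 and 3 had an unadjusted p under 0.05, against 16.6% of all probes.

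The genes whose level followed each T-type gene most closely were ranked by Pearson's r over the 12 arrays, with 13542 genes to choose from. Points share 6 lots and the normalisation, and r is given as a description without a test. For Cacna1h they were H2afy, the gene of the histone macroH2A, with r = 0.96, Ric8b, a G protein chaperone, with 0.89, Cldn12, a claudin, with 0.89, Gtf2e1, a general transcription factor subunit, with 0.88, and Usp48, a deubiquitinase, with 0.88. H2afy was higher by 0.16 in ACE, in 5 of 6 lots. Ric8b was higher in all 6 lots, by 0.22, but its r became -0.38 when arrays were scaled to their 75th percentile. H2afy was the only gene with r above 0.9 (1 of 13542).

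For Cacna1g, on A_64_P004584, the list was Slc4a10, a bicarbonate transporter of neurons, with r = 0.96, Slc35f2 with 0.96, Serp2 with 0.96, Celf4, an RNA-binding protein of neurons, with 0.95, and Skor1, a transcriptional corepressor, with 0.95. There were 48 genes with r above 0.9. For Cacna1i, on A_64_P017228, it was Kat5, a histone acetyltransferase gene, RGD1566102, Gpr152, an orphan receptor gene, Hmcn2 and Cox4i2, with r from 0.991 to 0.995, and 550 genes exceeded 0.9. All 5 of the latter were lower in ACE in all 6 lots, by 0.13 to 0.34 on the log2 scale, against 6.93% of all probes. They were chosen for following Cacna1i over the same arrays, so that this direction was largely fixed by the choice. Genes with r above 0.9 were thus many for Cacna1i, fewer for Cacna1g and a single one for Cacna1h. Cacna1h was chosen for its difference between the groups on the same arrays. The counts therefore cannot be set against each other as a trait of the genes.

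The makeup of the cultures was read from 11 lists of cell type markers, each summarised as the mean log2 signal of its genes. Of the neuron markers on the array, Tubb3 and Map2 were above background on all 12 arrays and Syt1 on 10, and the list lay between 8.76 and 9.42 in control and between 8.97 and 9.70 in ACE, higher in ACE in 5 of 6 lots. All 5 Purkinje cell markers were above background on all 12 arrays. Their list ranged from 10.47 to 10.90 in control and from 10.26 to 10.85 in ACE, and was lower in ACE in 5 of 6 lots by a mean of 0.06. Granule cell markers (5 of 5 detected on all arrays) ranged from 7.70 to 8.69 and from 8.01 to 8.78. Markers of astrocytes (5 of 5), oligodendrocytes (4 of 4) and microglia (4 of 4) were detected on all arrays too, so that detection alone does not show an enrichment of neurons. Tbr1, of glutamatergic nuclear neurons, was above background on 1 array, and the list it shares with Slc17a6 ranged from 3.59 to 4.10 in control and from 3.65 to 5.58 in ACE. The listed markers Rbfox3 and Eomes matched no probe by name.

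The list that moved most was that of skeletal muscle, a cell type in whose precursors Cacna1h is known to be expressed. It stood at 10.06, 10.49 and 7.96 in the control cultures of lots 1, 2 and 6 and at 9.39 in the ACE culture of lot 1, and between 6.44 and 6.77 on the 6 arrays of lots 3, 4 and 5. The ACE cultures of lots 2 and 6 read 6.49 and 6.45. The mean difference was -1.02 ± 0.65 (SE, n = 6 pairs), lower in ACE in 4 of 6 lots. Lot 2 carried much of this mean, which was -0.42 ± 0.31 (SE, n = 5 pairs) without it. Of its 5 genes, 4 were above background on all arrays and Ckm, the muscle creatine kinase gene, on 4. The Cacna1h level was among the lowest where this list was highest, in the control cultures of lots 1 and 2 and the ACE culture of lot 1, but also in the control culture of lot 5, where the list stood at 6.67. In lots 3, 4 and 5, where the list was low on both arrays, the Cacna1h differences were 0.28, 0.32 and 1.26. In lots 1, 2 and 6, where the list exceeded 7 in control, they were 0.77, 0.75 and 0.73.

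The mean of the astrocyte list was lower in ACE in 6 of 6 lots, by 0.07 ± 0.01, while 0 of its 9 tested probes kept one direction in all lots, against 11.7% of all probes, with ranges of 13.43 to 14.45 in control and 13.36 to 14.39 in ACE. The inhibitory neuron list was higher in 4 of 6 lots, by 0.11 ± 0.10. The oligodendrocyte list ranged from 13.81 to 14.66 in control and from 13.89 to 14.74 in ACE, the microglia list from 11.59 to 12.20 and from 11.56 to 12.28, the vascular smooth muscle and pericyte list from 8.87 to 9.51 and from 8.82 to 9.48, and the meningeal fibroblast list from 6.42 to 8.61 and from 7.09 to 8.46. The part of these cell types in the Cacna1h and Cacna1i differences was not tested.

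**Figure D5:**
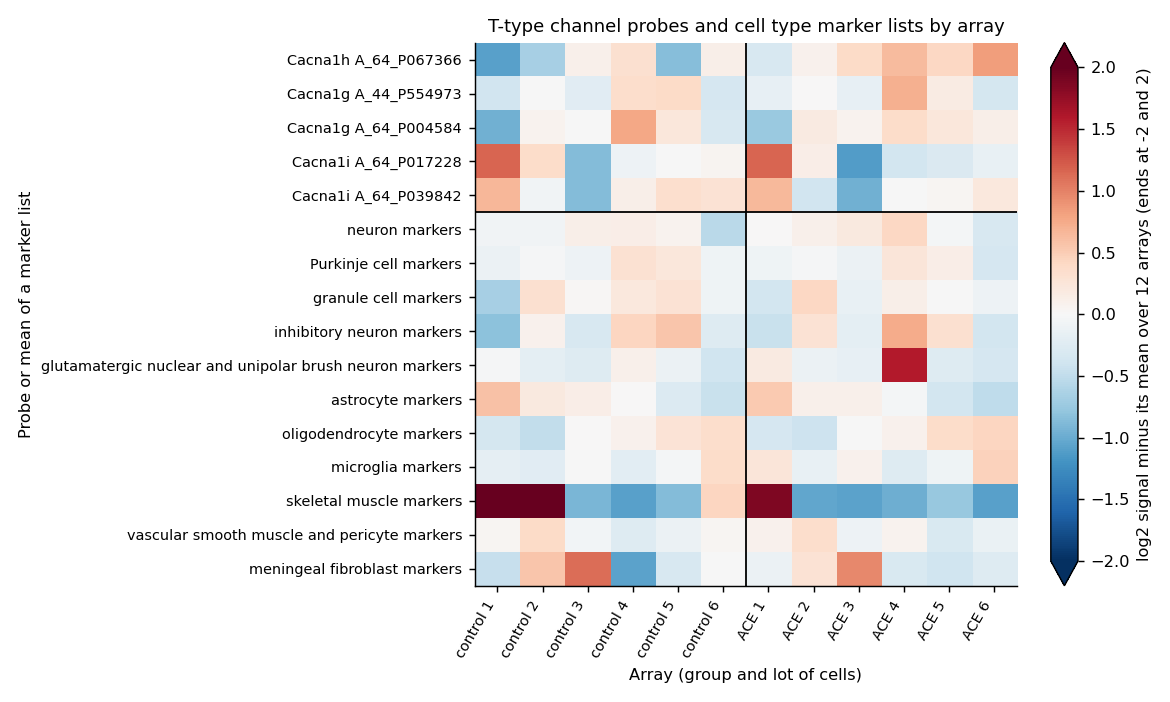
Log2 signal minus its mean over the 12 arrays (colour) for the 5 T-type channel probes and the 11 marker lists (rows) in each array (columns, by group and lot). The Cacna1i rows are alike in control and ACE and follow the lot, the Cacna1h row is higher in the ACE columns, and the skeletal muscle row stands out on 3 arrays, those of lot 1 in both groups and of control lot 2.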

How the data were processed

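Control and ACE cultures were compared on 1-colour arrays (Agilent, Cy3). Per the file headers, the authors extracted spot intensity with Agilent Feature Extraction, versions 11.0.1.1 and 11.5.1.1, as background-subtracted processed signal. A series table deposited by the authors holds log2 values, quantile normalised and centred per probe, which correlated at 0.998 to 0.999 per array with the centred values used here and served as an alternative. The authors' own comparisons were not used.

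Spots marked as outliers were set to missing, and log2 processed signal was quantile normalised and averaged per probe. Following the study's methods, probes above the 20th percentile on at least 7 of 12 arrays were kept. They were tested with limma 3.58.1 (R 4.3.3) with the lot as a block and Benjamini-Hochberg adjustment over all probes at 0.05, a fit checked on simulated data. At least 4 complete pairs were required. The study's methods give 1 lot of cells per experiment, the labels give the numbers, and the link between them was checked in the values: deviations of same-numbered arrays correlated at 0.449 to 0.912, against -0.439 to 0.390 for others.

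The named genes were every probe of the family, the 5 closest genes by r among probes above background on all arrays, partner genes with one direction in all lots or an unadjusted p under 0.05, and neighbours with one direction, a 1.5-fold change or the nearest position. The neighbour ID of a transcript is the array's. The largest and smallest members of the partner list and the high-voltage channel genes were named after their values were seen. A gene of the partner list is counted in it but not reported singly here. The members and lists were chosen with earlier results of these data known. Alternatives were 75th percentile scaling, normexp background (offset 50), the deposited values, no filter, no block, a random block, single lots left out, 1 scan batch, a normal approximation of the signed-rank test, a 1000 kb window, other arrays for r, and, added after the data were seen, lots with a low muscle list (mean under 7) only. Figures were drawn with matplotlib 3.10.9 (Python 3.11.15).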

Additional observations from a re-analysis of the deposited data

Results flagged for a closer look

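In 98 groups of 6 cultures examined (49 probes or marker lists in control and ACE), 8 had a culture standing apart from the other 5 by Dixon's criterion. Chance flags about 1 group in 20, or 5%, and groups that share lots are not independent.

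Cacna1g A_64_P004584 read 6.06 in the ACE culture of lot 1, below the next value of 6.87. With 75th percentile scaling the gap was smaller, as this culture read 6.53 and the next 6.73. Of the genes with a pattern like Cacna1g, Slc4a10 was low in the same culture, at 4.18 with the next at 5.27, and Skor1 was low in the control culture of lot 1, at 5.24 with the next at 6.97. Cldn12, of the genes with a pattern like Cacna1h, was low in the ACE culture of lot 1, at 9.41 with the next at 9.73. No Cacna1h or Cacna1i value stood apart by this criterion.

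Among the marker lists, skeletal muscle was high in the ACE culture of lot 1, at 9.39 with the next at 6.77. The control culture of lot 6 had the lowest neuron list, at 8.76 with the next at 9.22, and the highest microglia list, at 12.20 with the next at 11.81. The list of glutamatergic nuclear and unipolar brush neurons was high in the ACE culture of lot 4, at 5.58 with the next at 4.18.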

How the results depend on the processing

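The Cacna1h difference stayed positive under all alternatives run, from 0.57 to 0.77, and in all 6 lots under each scaling. As the gene was chosen for this difference on the same arrays, this is a description and no support. The Cacna1i probes stayed lower on average, with adjusted p from 0.128 to 1.00 and from 0.148 to 1.00 by limma, but A_64_P017228 was lower in only 5 of 6 lots with normexp background. With 75th percentile scaling the Cacna1g probe A_44_P554973 reversed to -0.058 and A_64_P004584 to -0.0062, and in the lots with a low muscle list A_64_P004584 reversed to -0.11. Without the lot as a block, the adjusted p of the Cacna1g and Cacna1i probes was 1.00, a call that the pairing did not change, and the random block gave 5 probes past the adjusted threshold, where the other scalings, filters, blocks, left-out lots and the scan batch gave 0. The cause was not tested.

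Counts of probes with one direction in all lots moved more. Over all probes the count of 2755 became 4572 with the normal approximation, which also admits probes whose smallest difference goes against the rest, 3392 to 4502 with single lots left out (4289 without lot 1, 4502 without lot 3), and 10071 in the scan batch of 3 lots, where fewer lots have to agree. For the partner list, the count of 2 became 4 with 75th percentile scaling, 2 to 6 with single lots left out (4 without lot 4, 6 without lot 3) and 17 in the scan batch. Near Cacna1h the count of 8 became 4 with 75th percentile scaling, 3 with normexp background, 9 to 12 with single lots left out, 23 in the scan batch and 13 in the 1000 kb window. Near Cacna1g the count of 3 became 3 to 7 with single lots left out (7 without lot 3), 12 in the scan batch and 5 in the wider window. Near Cacna1i the count of 1 became 2 with 75th percentile scaling, 4 with normexp background, 1 to 4 with single lots left out (4 without lot 4), 5 in the scan batch and 3 in the wider window.

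Of the 5 genes closest to each member, 2 remained for Cacna1h, 1 for Cacna1g and 3 for Cacna1i when r was taken over the control arrays, and 2, 2 and 3 with 75th percentile scaling. Signal over background limits the dim Cacna1g probe A_44_P554973 most.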
